A study of Mus musculus with 2 samples.

Results

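Recurring new combinations of known splice sites are spliced RNAs whose introns are joined in an order that no annotated transcript of the gene holds, and that were found in both libraries of mouse gastrocnemius, a limb muscle in which fast fibres predominate. A chain is the full set of introns of 1 transcript model, given by chromosome, strand and every intron's ends. Members were chosen by the class NIC (annotated splice sites in a combination that is not annotated) in both count tables and by 2 or more reads in each. Of 17824 NIC chains in either library, 3031 were NIC in both and 1294 met the rule, among 89864 multi-exon chains of all classes. They are called recurring chains here, and their reads and their NIC label are what selected them.

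Both libraries came from gastrocnemius tissue of 25-day-old male B6CASTF1/J mice, an F1 cross, with no treatment named in the labels, and each library was made from 2 µg of RNA. They form 1 group of 2 biological replicates, so no condition was compared. Every test below compares these 2 libraries by their reads and covers counting error only, and although the labels number the animals separately, both point to 1 donor record. Replicate 1 held 1292409 reads, 1215785 of them in annotated genes, and replicate 2 held 1703457, of which 1549606 lay in annotated genes. Summed over 5 skeletal muscle fibre markers the level was 339462 CPM (reads scaled to a common total of reads in annotated genes) in replicate 1 and 218588 CPM in replicate 2, of which Atp2a1 made 151516 and 23536 CPM, while Tnnc2 had 24025 and 49836 CPM. Summed fibroblast markers were at 4589 and 918 CPM and endothelial ones at 43.6 and 20.7 CPM, whereas Schwann cell markers were at 146.4 and 497.5 CPM and erythroid ones at 325.7 and 508.5 CPM. The part of these differences in the results was not tested.

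In splicing, the spliceosome cuts an intron at a donor site at its 5′ end and an acceptor site at its 3′ end, and it joins the flanking exons. Alternative splicing skips exons, shifts sites, retains introns or exchanges first and last exons, and striated muscle is known for extensive alternative splicing of its contractile genes, troponin T among them. A long read covers many junctions of 1 molecule, so it shows which choices occur together.

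Short exons, short gaps and small shifts of a splice site separate several of the recurring chains with most reads from annotated models, those of Tnni2, Oaz1 and Srl among them. In each line the bases run 5′ to 3′, lower case is RNA (written with T) that both forms share, and capitals are bases that only 1 of the forms holds. In the first set, chosen because these exons hold 62.6% of the replicate 1 reads and 75.6% of the replicate 2 reads on chains that differ by 1 left-out exon, the capitals are an annotated exon of 10 bases or fewer that the recurring chain left out. All sequences were read from GENCODE M21 transcripts on GRCm38.
Tnni2 (chr7:142442691-142442697, plus strand): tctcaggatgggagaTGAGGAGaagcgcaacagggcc
Tnni1 (chr1:135803282-135803285, plus strand): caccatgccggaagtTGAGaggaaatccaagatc
Phb2 (chr6:124716425-124716430, plus strand): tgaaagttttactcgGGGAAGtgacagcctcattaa
Sept7 (chr9:25265302-25265306, plus strand): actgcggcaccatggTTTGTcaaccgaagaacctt
Ksr1 (chr11:79043196-79043200, minus strand): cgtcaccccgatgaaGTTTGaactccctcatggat

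In the second set, shown because the chains made up most of their gene's reads or, for Srl, stood among the highest by level, the capitals are bases that the recurring chain holds and the closest annotated model leaves out. In Oaz1 and Oaz2 they are a gap of 4 bases inside the annotated coding sequence, and in Srl and Ctbp1 they are a shift of 3 bases at 1 splice site.
Oaz1 (chr10:80828292-80828295, plus strand): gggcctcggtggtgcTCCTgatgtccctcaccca
Oaz2 (chr9:65686269-65686272, plus strand): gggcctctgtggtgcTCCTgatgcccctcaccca
Srl (chr16:4493878-4493880, minus strand): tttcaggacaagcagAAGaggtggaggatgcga
Ctbp1 (chr5:33248684-33248686, minus strand): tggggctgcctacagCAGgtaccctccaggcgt

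In Gbe1, the glycogen branching enzyme, the recurring chain and its closest annotated model placed an intron 4 bases apart, and the RNA they give is the same. The first line is the recurring chain with its 4 bases at chr16:70433545-70433548, and the second is the annotated model with its 4 bases at chr16:70401850-70401853, both on the plus strand.
Gbe1 recurring chain: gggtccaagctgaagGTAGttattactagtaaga
Gbe1 annotated model: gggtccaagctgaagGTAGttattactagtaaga
Of the 1292 recurring chains in annotated genes, 3 had an RNA found whole in an annotated transcript of the gene, those of Gbe1, Mta1 and Mul1. The files hold coordinates and no reads, so whether the reads carried the bases of a left-out exon of a few bases was not tested.

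The last set shows whole exons of the coding sequence. Against the closest annotated model, Dctn1, a dynactin subunit, gained a 21-base exon and Usp47, a deubiquitinase, gained a 60-base exon. Ampd1, the AMP deaminase of muscle, lost a 12-base exon. By class the Dctn1 chain counts as exon skipping, since its new intron skips 2 exons, 39 bases in all, of another annotated model. Eno1, the widely expressed enolase, had 1 exon of 59 bases exchanged for another of 59 bases.
Dctn1 exon gained (chr6:83187764-83187784, plus strand): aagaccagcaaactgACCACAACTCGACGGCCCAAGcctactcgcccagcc
Usp47 exon gained (chr7:112080172-112080231, plus strand): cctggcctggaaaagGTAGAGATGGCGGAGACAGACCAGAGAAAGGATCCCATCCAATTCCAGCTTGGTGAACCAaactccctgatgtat
Ampd1 exon lost (chr3:103075407-103075418, plus strand): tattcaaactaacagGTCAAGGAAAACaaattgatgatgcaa
Eno1 exon of the recurring chain (chr4:150241767-150241825, plus strand): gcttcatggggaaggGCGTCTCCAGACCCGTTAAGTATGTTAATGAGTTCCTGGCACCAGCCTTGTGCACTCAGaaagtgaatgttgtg
Eno1 exon of the annotated model (chr4:150242122-150242180, plus strand): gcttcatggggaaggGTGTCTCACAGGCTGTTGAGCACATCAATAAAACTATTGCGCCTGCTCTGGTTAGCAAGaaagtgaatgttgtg

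Recurring chains lay in 884 annotated genes, 680 of which had exactly 1, and 2 chains lay in no annotated gene. They held 29931 reads in replicate 1 and 27712 in replicate 2, which was 2.46% and 1.79% of the reads in annotated genes. They took 46.1% of all NIC reads in replicate 1 and 67.6% in replicate 2. Most were rare: the median was 5 reads in replicate 1 and 4 in replicate 2, and 214 had 10 or more reads in each. The 10 chains with most reads held 37.3% of the recurring reads in replicate 1 and 49.0% in replicate 2. Just inside the threshold, 111 chains had exactly 2 reads in each library. Just outside it, 395 NIC chains had 1 read in replicate 1 and 2 or more, up to 16, in replicate 2, and 615 had 1 read in replicate 2 and 2 or more, up to 57, in replicate 1. Another 727 had 1 read in each.

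Genes with a recurring chain had a median of 131 reads over both libraries, against 22 in other multi-exon genes with reads in both. They also had more annotated models, a median of 8 against 5. Nearly all recurring chains, 1275 of 1292, lay in protein-coding genes. Their introns numbered 1 to 49, with a median of 9.

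The NIC label was checked against the annotation. Of the 1294 recurring chains, 166 (12.8%) held at least 1 splice site that GENCODE M21 does not list on that strand, and 10 used a site annotated in another gene. Those 166 chains lay in 93 genes and held 11.7% of the recurring reads in replicate 1 and 10.5% in replicate 2. Among other NIC chains the share with such a site was 26.1% in replicate 1 and 25.9% in replicate 2. With annotated sites alone 1128 chains in 830 genes were left. The chains with an unlisted site are kept in the counts below and named where they matter.

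Each chain was put in the first class it met, in the order exon skipped, new site pairing and intron retained. Chains made wholly of annotated introns and retaining none were split into new first or last exon combinations, where the chain without its outermost intron on 1 or both sides is part of an annotated model, and internal combinations of the rest. New first or last exon combinations were the commonest class, with 491 chains (38.0%) in 409 genes; with only annotated models that had a read as known, the class fell to 102 chains (7.89%) and new site pairing was the commonest with 779 (60.3%). Internal combinations followed with 305 (23.6%), then exon skipping with 250 (19.3%), new site pairings with 212 (16.4%) and retained introns with 34 (2.63%). Among NIC chains that did not recur, first or last exon combinations made up 16.8% in replicate 1 and 19.4% in replicate 2, and retained introns 13.8% and 7.41%. New site pairings were 26.7% and 28.1% of those chains. Of the 212 recurring new site pairings, 155 held a site outside the annotation and 57 did not. These shares describe the chains, with no test, because reads in both libraries chose the members.

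**Figure D1:**
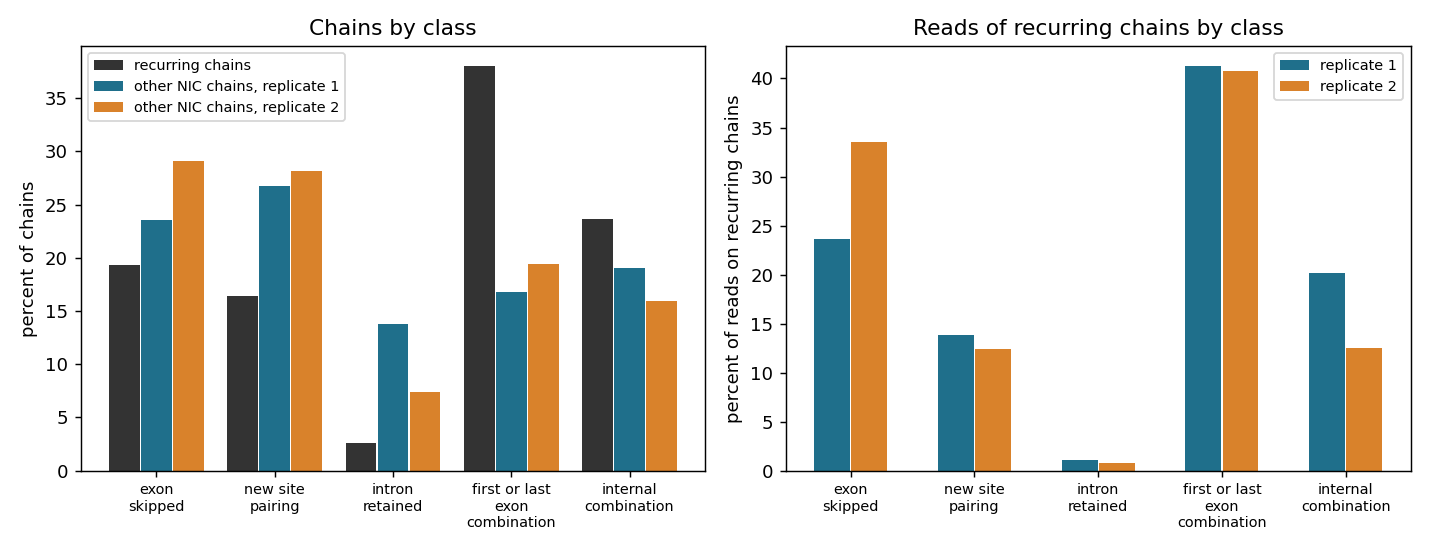
Left, percent of chains in each class for recurring chains (black) and for the other NIC chains of replicate 1 (blue) and replicate 2 (orange). Right, percent of the reads on recurring chains in each class by library. First or last exon combinations stand at 38.0% of recurring chains, against 16.8% and 19.4% of the other NIC chains.

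By reads, first or last exon combinations held 41.3% of the recurring reads in replicate 1 and 40.8% in replicate 2. Exon skipping held 23.7% and 33.5%, internal combinations 20.2% and 12.5%, new site pairings 13.9% and 12.4%, and retained introns 1.05% and 0.751%. The reads on exon skipping rested on 1 chain: that of Tnni2 made up 57.3% of them in replicate 1 and 58.8% in replicate 2. The median share of the gene's reads was 10.2% in replicate 1 and 8.70% in replicate 2 for first or last exon combinations, and 11.3% and 8.73% for internal combinations. It was 4.76% and 3.91% for skipped exons, 2.42% and 1.79% for new pairings, and 0.368% and 0.194% for retained introns.

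Against the closest annotated model, the one that shares most introns, 1144 chains differed by 1 change and 148 by more. The commonest single change was an exon left out, in 248 chains, with a median length of 118.5 bases. A splice site moved by over 10 bases in 192 chains and by 10 or fewer in 115. In 180 chains an intron lay inside the model's ends and overlapped none of the model's introns within the chain's bounds. Its median length was 1103.5 bases, and the longest was 150742. Model introns that cross the chain's own ends were not compared. These 180 can therefore include other first or last exons besides introns within an exon. An intron lay beyond the model in 131 chains, an exon was added in 109 and an intron was retained in 44. Another first exon was called in 39 chains and another last exon in 15, counts that can miss some. Of the 115 small moves, 62 were of 3 bases and 20 of 4 bases.

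Of the 248 chains with an exon left out, 5 lacked an exon of 10 bases or fewer, and those 5 held 4406 reads in replicate 1 and 6045 in replicate 2. The largest was that of Tnni2, fast-fibre troponin I, the subunit that inhibits contraction in the absence of calcium. It had 4054 reads (3334 CPM) in replicate 1 and 5462 (3525 CPM) in replicate 2, the highest level of any recurring chain in the mean. That was 78.4% of the Tnni2 reads in replicate 1 (95% Clopper-Pearson interval 77.3 to 79.6) and 60.7% in replicate 2 (59.7 to 61.7). The annotated models of Tnni2 together had 60 and 205 reads.

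Its slow-fibre counterpart Tnni1 showed the same kind of chain, without a 4-base exon. The chain had 122 of 138 Tnni1 reads in replicate 1 (88.4%) and 340 of 429 in replicate 2 (79.3%), and no read lay on an annotated Tnni1 model. Phb2, a prohibitin of the mitochondrial inner membrane, lacked a 6-base exon in 137 and 170 reads, 96.5% and 93.9% of the gene's reads. Sept7, a septin, lacked a 5-base exon in 74 and 66 reads, 86.0% and 85.7%. Ksr1, a scaffold of the MAP kinase pathway, lacked a 5-base exon in 19 and 7 reads, 30.2% and 21.2%. Mpc1, a subunit of the mitochondrial pyruvate carrier, had a chain that skipped a 4-base exon in 321 and 731 reads, 95.0% and 92.0% of its reads. In Tnni2, Tnni1, Mpc1, Sept7 and Ksr1 the reading frame from the annotated start codon then met a stop codon over 50 bases before the last junction, while in Phb2 it ran to the annotated stop.

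**Figure D2:**
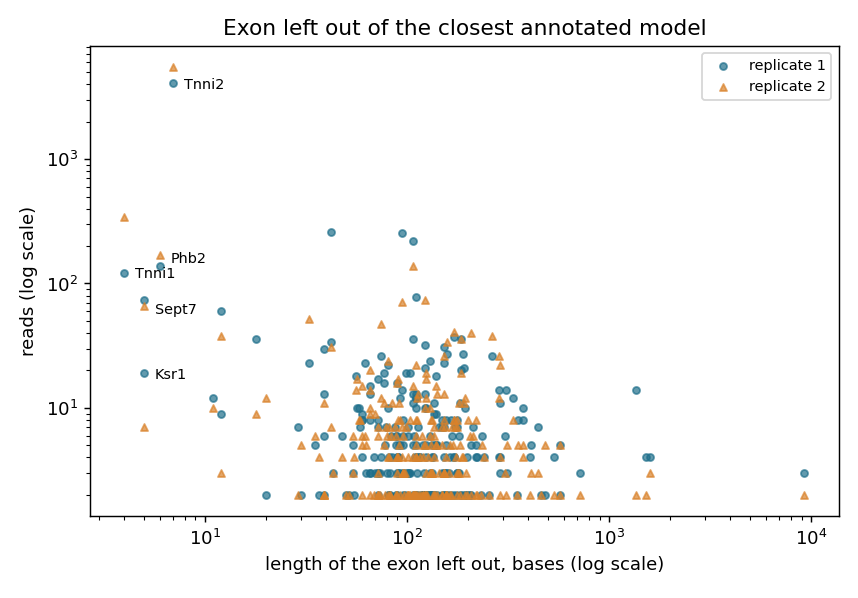
Reads in replicate 1 (blue circles) and replicate 2 (orange triangles) of the 248 chains that leave 1 exon out of the closest annotated model, against the length of that exon in bases, both on log scales. The Tnni2 chain, with a 7-base exon left out, stands highest with 4054 and 5462 reads.

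Lengths of skipped stretches were set beside the reading frame, since a multiple of 3 keeps it. Of 236 distinct skipped stretches, 207 of them of 1 exon, 105 (44.5%, 95% Clopper-Pearson interval 38.0 to 51.1) had a length that is a multiple of 3. Of the 178 wholly coding ones 88 did (49.4%, 41.9 to 57.0). Among the 2088 annotated internal coding exons of the same genes the share was 48.8%, inside that interval.

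In 315 of the 491 first or last exon combinations, the chain without its outermost 5′ intron was part of an annotated model. In 93 this held without the outermost 3′ intron, in 16 only without both, and in 67 without either. That side need not be where a chain differs from its closest model. Among all recurring chains with a single change, another first exon was called in 39 and another last exon in 15, counts that can miss some. Oaz1 encodes antizyme, which binds ornithine decarboxylase and is made by a programmed ribosomal frameshift that polyamines induce. Its main recurring chain had 1405 reads in replicate 1 and 2883 reads in replicate 2, which was 96.2% and 95.6% of the gene's reads, and it differed from the closest model by the 4-base gap shown above. Oaz2, its paralogue, had 439 and 418 reads, 91.3% and 87.8%, and no read on an annotated model. Of the 6 chains that differed by filling an annotated gap of 1 to 4 bases, 3 were Oaz1 chains and the others lay in Oaz2, Nadk2 and Mpc1. Such gaps were counted as introns of the annotated models, so a chain that fills one counts as a new combination. The relation of the Oaz1 and Oaz2 gaps to the frameshift was not tested.

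Other first or last exon combinations ranged from whole exons to small shifts. Ndrg2, a gene of the N-myc downstream regulated family, had 991 reads in replicate 1 and 696 in replicate 2 on a chain with another first exon, 40.3% and 24.03% of its reads, with the annotated coding sequence. Tmed2, a cargo receptor of the early secretory pathway, had 426 and 387 reads, 89.3% and 88.6%. Mbnl2, a muscleblind splicing regulator, had 255 and 71 reads, 80.2% and 70.3%, on a chain that lacked a 95-base exon. Srl, sarcalumenin, a calcium-binding protein of the sarcoplasmic reticulum, had 1990 and 516 reads, 49.9% and 40.3%, on the chain with the 3-base shift. Ctbp1, a transcriptional corepressor, had 316 and 210, 60.9% and 52.6%.

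Internal combinations were led by Acta1, skeletal alpha-actin. That chain gained a 90-base exon before the coding sequence and left the coding sequence as annotated. It had 517 reads in replicate 1 and 535 in replicate 2, but these were 0.596% and 0.523% of the Acta1 reads. Eno1, by contrast, put 147 and 138 reads on the chain with the exchanged exon, 90.7% and 83.1% of its reads. Usp47 had 195 and 40 reads, 42.03% and 41.2%, with the 60-base exon. Mybpc1, slow myosin binding protein C, left out a 42-base exon in 261 and 31 reads, 12.5% and 6.29%.

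New site pairings were led by Tnnt3, fast troponin T, the subunit that ties troponin to tropomyosin. All 16 of its recurring chains were new pairings and all 16 held a site outside the annotation. They had 799 reads in replicate 1 and 1288 reads in replicate 2, which was 33.5% and 21.2% of the gene's reads, while annotated Tnnt3 models had 6 and 23 reads. Eno3, the muscle enolase, also had 16 recurring chains, but with 439 and 736 reads they made up 4.47% and 4.65% of a gene whose annotated models held 8572 and 12793. Myl1, the alkali light chain of fast fibres, had 14 chains with 2.76% and 2.84% of its reads. A site outside the annotation was held by 10 of the 16 Eno3 chains and by 10 of the 14 Myl1 chains.

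Atp2a1, the fast-fibre calcium pump, had 11 recurring chains with 621 reads in replicate 1 and 109 in replicate 2, 0.337% and 0.299% of its reads, and no read on an annotated model. Of these 11 chains, 10 held a site outside the annotation. The most read Atp2a1 chain was of the class with a site outside the annotation and held 175352 of 184211 reads in replicate 1 and 31937 of 36472 in replicate 2. Mff, a receptor for the mitochondrial fission machinery, had 11 recurring chains, all internal combinations, which held 60.6% and 56.4% of 155 and 179 reads. Pacsin3, an endocytic adaptor of muscle, had 8 with 24.7% and 20.9%, and Ckm, muscle creatine kinase, had 8 with 0.0371% and 0.0632%.

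**Figure D3:**
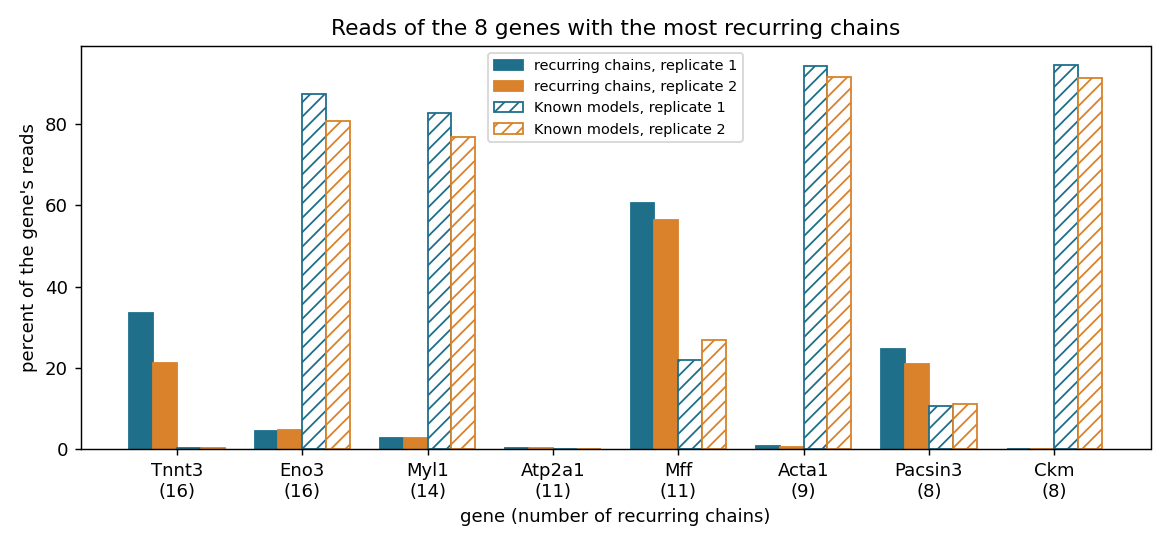
Percent of the gene's reads on recurring chains (filled) and on annotated models (hatched) in replicate 1 (blue) and replicate 2 (orange), for the 8 genes with the most recurring chains, whose number stands in brackets. In Mff recurring chains hold 60.6% and 56.4%, while in Eno3, Myl1, Acta1 and Ckm annotated models hold most reads.

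Retained introns were few, and in 24 of the 34 chains they held under 1% of the gene's reads in both libraries. Slc20a2, a phosphate transporter, stood higher with 17 of 86 reads in replicate 1 (19.8%) and 7 of 49 in replicate 2 (14.3%). Against its closest annotated model, though, the Slc20a2 chain shared 9 introns of the 10 that each has. The single change called there was its first intron, before the coding sequence, and not a retained intron. Ankrd23, a muscle ankyrin repeat protein, held 5 of the 34 chains, with 104 reads in replicate 1 and 69 in replicate 2, 3.04% and 2.89% of its reads. Acta1 held 4, and the one with most reads kept a 98-base intron in 54 and 8 reads, 0.0623% and 0.00782% of the gene's reads.

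Recurring chains outnumbered every annotated model of their gene in both libraries in 284 cases, in 225 genes. Among them, 52 chains in 38 genes lay in genes with no read on any annotated model. In 47 genes 1 recurring chain held over 50% of the reads in both libraries, 29 of them with 20 or more reads in each. Idh3b, a subunit of mitochondrial isocitrate dehydrogenase, was one, with 529 reads in replicate 1 and 843 in replicate 2, 88.8% and 81.8% of its reads. Uchl3, a ubiquitin hydrolase, was another, with 41 and 94 reads, 89.1% and 86.2%.

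The reading frame of each chain was followed from an annotated start codon through annotated exon sequence. The annotated coding sequence was kept in 365 chains (28.3%), and 420 (32.5%) gave coding positions that differed from it and ended at an annotated stop codon. Coding sequences were compared by genomic position, so the 420 include the Gbe1 chain, whose RNA was found in an annotated transcript. In 238 chains (18.4%) the stop codon lay over 50 bases before the last junction, a distance at which nonsense-mediated decay is known to act, and 63 ended at another stop. The rest could not be followed: 97 needed a base outside annotated exons, 85 held no annotated start codon, 17 lay in genes without a coding model and 7 met no stop. The 238 chains held 8326 reads in replicate 1 and 12578 in replicate 2, a sum that includes the chains of Tnni2, Tnni1 and Mpc1 above. Of these reads, the Tnni2 chain alone held 4054 and 5462. Its early stop, like those of Tnni1, Mpc1, Sept7 and Ksr1, rests on a left-out exon of a few bases. Whether the reads carried those bases was not tested. The frame was read without the frameshift by which antizymes are made. Without the 5 chains of Oaz1 and Oaz2 there were 233, with 6449 and 9194 reads, which still include the Tnni2 chain. The change lay within the coding span in 892 chains, before it in 307 and after it in 72.

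Recurring chains were counted in 6 lists of muscle and RNA genes. Of the 11882 annotated genes with reads in both libraries, 7.44% had a recurring chain. In the sarcomere list 17 of 32 genes had one, with 74 chains, and in the list of energy metabolism 14 of 26, with 43. The Z-disc and cytoskeleton list had 9 of 24, the calcium and excitation list 9 of 24, the RNA binding and splicing list 8 of 27 and the translation list 3 of 11. Among the sarcomere genes their reads were 2.84% of the list's reads in replicate 1 and 2.55% in replicate 2. Among RNA binding and splicing genes they were 20.2% and 6.66%, led by Mbnl2 and by Hnrnpk, an RNA-binding protein. The top Hnrnpk chain, with a site outside the annotation, had 77 and 50 reads. In that list Hnrnpa2b1, which had no recurring chain, had 436 reads in replicate 1 and 1489 in replicate 2. The lists' genes are read more deeply than most, and nothing particular to a list is read from these counts.

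Shares of the gene's reads were compared between the libraries by a two-sided Fisher exact test with Benjamini-Hochberg adjustment over all multi-exon chains with 10 or more reads. Of 10235 chains tested, 17.6% passed an adjusted p of 0.05, and of those with 2 or more reads in each library 16.9% did. Of the 721 recurring chains tested, 51 passed (7.07%), 48 of them with a higher share in replicate 1 and 3 with a lower one. Reads in both libraries chose the members, and nothing is read from their smaller share. The direction and size of the differences over all chains called are not given here. Nothing particular to recurring chains is therefore read from the 48 and the 3. With incomplete and genomic reads left out of the gene's total, 12 passed, 8 of them among the 51, and 2.2% of all 7821 chains tested did. The share lay within 2-fold between the libraries in 958 of 1292 chains (74.1%).

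Of the 51, 40 differed by over 2-fold, and 5 of these 40 also passed with incomplete and genomic reads left out of the gene's total. Tnnc2, fast troponin C, had a new pairing whose site had moved by 4 bases and was not annotated, with 6 reads (0.0205%) in replicate 1 and 255 (0.330%) in replicate 2. Its adjusted p by Fisher's exact test was 6.6e-26, and 1.9e-25 without incomplete and genomic reads, so it was lower in replicate 1 either way. A Tnnt3 chain had 336 reads (14.1%) and 413 (6.81%), with an adjusted p by Fisher's exact test of 2.6e-22, and of 2.2e-08 without those reads, where the shares were 20.05% and 12.9%. Other differences ended with that total. Nexn, nexilin, an actin-binding protein of the Z-disc, had an internal combination with 211 of 492 reads in replicate 1 (42.9%) and 126 of 1569 in replicate 2 (8.03%), adjusted p 6.7e-62 by Fisher's exact test, but 69.9% and 68.9% without incomplete and genomic reads, where the adjusted p was 1. Ttn, titin, had 101 of 438 (23.1%) and 16 of 326 (4.91%), but 85.6% and 66.7% without them, with an adjusted p of 0.51 by Fisher's exact test. Dctn1 had 160 of 426 (37.6%) and 28 of 200 (14.0%), but 44.8% and 47.5% without them, with the order of the libraries turned and an adjusted p of 1 by Fisher's exact test.

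**Figure D4:**
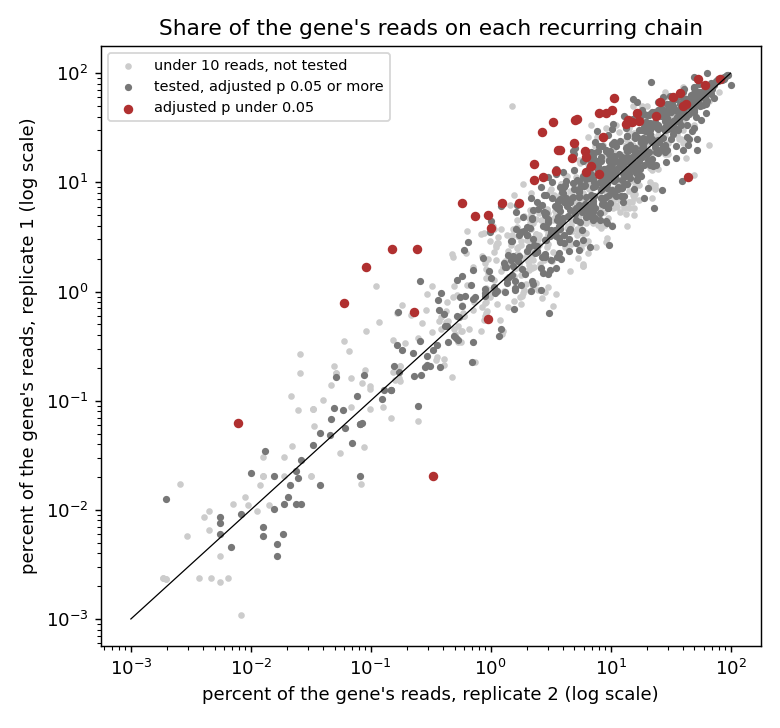
Percent of the gene's reads on each of the 1292 recurring chains in replicate 1 (vertical) and replicate 2 (horizontal), both on log scales, with the line of equality. Red points are the 51 chains with an adjusted p under 0.05, 48 of them above the line; light grey chains had under 10 reads and were not tested.

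Levels of recurring chains were higher in replicate 1 by a median log2 ratio of 0.57, and the ratio moved with the number of introns. Chains of 1 to 4 introns had a median log2 ratio, replicate 1 over replicate 2, of 0.03 (n = 215), those of 5 to 9 introns 0.35 (n = 501), those of 10 to 19 introns 0.93 (n = 420) and those of 20 or more 2.08 (n = 158). Annotated chains with 2 or more reads in each library had medians of -0.23, 0.35, 1.09 and 2.26 in the same bins. The ratio was higher in bins with more introns for both kinds of chain, and the part of this in the differences of single chains above was not tested. Of the recurring chains with 20 or more introns, 97.5% were higher in replicate 1, against 98.8% of annotated chains of that size.

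**Figure D5:**
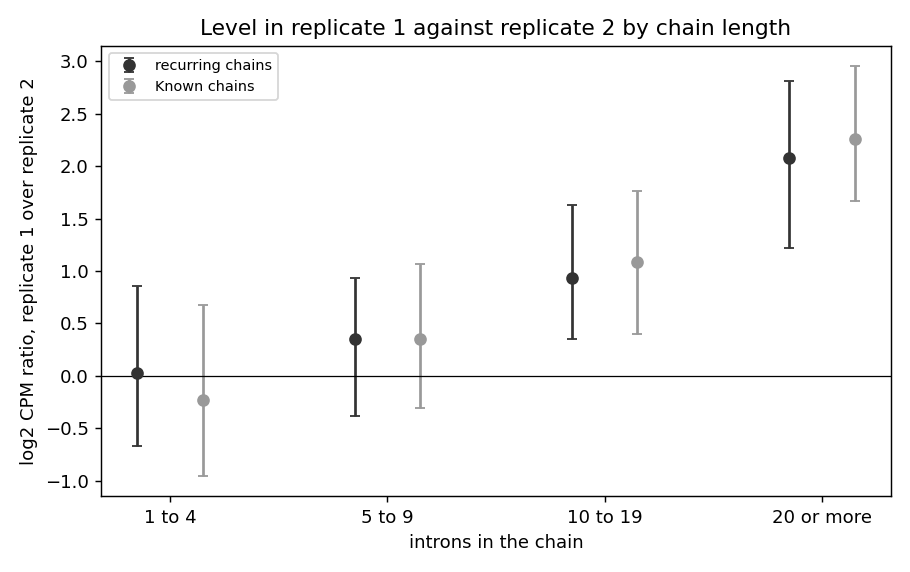
Median log2 ratio of CPM, replicate 1 over replicate 2, with bars from the first to the third quartile, for recurring chains (black) and annotated chains (grey) by the number of introns in the chain. Recurring chains climb between 0.03 at 1 to 4 introns and 2.08 at 20 or more.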

How the data were processed

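Per the file headers, the authors deposited whole read counts per transcript model for each library, not normalised, with a matching annotation on mm10 built with TALON from GENCODE M21. Aligner, versions and filters: not given in the sources used here. Chains were matched between libraries by chromosome, strand and every intron. Members, gene lists and tests were chosen with earlier results of these data known. Known models were all M21 models of the gene; sequences came from M21 transcripts, found for 7534 of 7535 needed. CPM divides by reads in annotated genes. A count of 0 allows 2.47 CPM in replicate 1 and 1.94 CPM in replicate 2 (3 counts). Intervals are exact 95% Clopper-Pearson and, like the tests, cover counting error only, since reads need not be independent molecules. The share test was a two-sided Fisher exact test (scipy 1.17.1) with Benjamini-Hochberg adjustment over all chains with 10 or more reads. On counts drawn with known shares it called 79.0% of 200 chains changed 4-fold among 10159 tested. The class rule was tested on made-up genes. TMM (edgeR 4.0.16) and DESeq2 1.42.0 size factors were alternatives. Named chains were the 15 with the highest level, the top 6 of each class, the 8 genes with most chains, the 8 largest shares, up to 10 differing chains and up to 4 per list. Not every chain meeting this rule is described; Sept7, Ksr1, Mta1, Mul1 and Nadk2 were chosen after their values were seen.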

Additional observations from a re-analysis of the deposited data

How the results depend on the processing

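The number of recurring chains followed the read minimum: 3031 at 1 read in each library, 828 at 3, 486 at 5 and 214 at 10. Leaving out 1 library at a time gave 2625 to 3731, and these are NIC chains of the other library alone. It stayed within 1.5 times of 1294 with NIC in either library (1695), with sites matched within 5 bp (1449) and, chosen after seeing the data, with annotated sites alone (1128). At 5 and then 10 reads in each, exon skipping counted 72 and 28 chains, new site pairing 75 and 32, intron retention 11 and 4, first or last exon combination 203 and 85, and internal combination 125 and 65. As a share of the chains left, exon skipping was 13.1% at 10 reads, against 19.3% at 2, and internal combination 30.4%, against 23.6%. With only annotated models that had 1 or more reads as the reference, new site pairing rose to 779, first or last exon combination fell to 102 and internal combination to 63, since fewer introns then count as known. With annotated sites alone new site pairing was 57. The mean share of the genes' reads on recurring chains was 3.77% ± 0.403 (SD, n = 2), was 4.35% without incomplete and genomic reads, and ranged over 3.49 to 4.06% leaving out 1 library. Chains differing in share numbered 51, against 12 without incomplete and genomic reads, 49 with no other minimum and 48 at 20 reads. The median log2 ratio of 0.57 was 0.28 with TMM and 0.26 with DESeq2 size factors. The share of skipped stretches that are multiples of 3 was 44.5% of 236, 52.2% of 69 at 5 reads and 63.0% of 27 at 10 reads. No paired analysis was possible because there is 1 group.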
